A study of Mus musculus with 32 samples.

Results

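The genes described are those encoded by mouse mitochondrial DNA, taken as every gene of the deposited count table whose chromosome was chrM, which gave 37 of 33000 genes. They comprised 13 protein-coding genes, 2 ribosomal RNA (rRNA) genes and 22 transfer RNA (tRNA) genes, and the other 32963 genes are called nuclear here. Total RNA from the frontal cortex of C57BL/6 mice aged 3 months was profiled by 3'Pool-seq, in which an oligo-dT primer carrying a sample index starts reverse transcription, samples are pooled straight afterwards and the ends of polyadenylated transcripts are sequenced. The mice were wild type (WT) or homozygous for GFAP-IL6, a transgene that places the cytokine IL6 under the promoter of the astrocyte gene Gfap. The IL6 made from the transgene is therefore limited to cells that use this promoter. Both genotypes were measured at 50, 10, 1 and 0.5 ng of RNA in the reverse transcription, with 4 libraries in each of 8 groups and 32 libraries in all. Libraries are named by genotype, number and input. The labels do not say that the 4 libraries of a group came from separate mice, or that libraries with 1 number at different inputs came from 1 RNA, so p-values measure the spread between these libraries, which may be technical. How the libraries of the 4 inputs were divided among pools is not given in the sources used here, so input and pool cannot be told apart.

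Mitochondrial DNA is transcribed from both strands into long precursors that cover many genes. Most tRNA genes lie between the other genes, and excision of the tRNAs releases the rRNAs and messenger RNAs. The released RNAs receive short poly(A) tails from the mitochondrial poly(A) polymerase, and for several messenger RNAs this tail also completes the stop codon, because the DNA encodes only its first base. The protein-coding genes specify subunits of complexes I, III, IV and V of the respiratory chain, whose remaining subunits are encoded in the nucleus.

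The ends of 5 protein-coding genes are shown because the assay primes at the poly(A) tail that follows them. Each is the last 30 bases of the gene, 5' to 3' on the plus strand of chrM in mm10, and capitals mark the stop codon or the part of it that the gene encodes.
mt-Nd1 (chrM:3678-3707): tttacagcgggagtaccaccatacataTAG
mt-Co3 (chrM:9361-9390): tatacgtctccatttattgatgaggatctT
mt-Nd3 (chrM:9777-9806): acacaaaaaggattagaatgaacagagTAA
mt-Nd4 (chrM:11515-11544): gtccaaaactaattacaggcctgacaataT
mt-Cytb (chrM:15259-15288): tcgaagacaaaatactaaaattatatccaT
In mt-Co3, mt-Nd4 and mt-Cytb the annotated gene ended 1 base past the last whole codon, on the T of an incomplete stop codon. In mt-Nd1 and mt-Nd3 the gene encoded the whole stop codon.

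Library totals ran from 261378 to 9840302 counts with a median of 2180296. The Il6 counts of the 4 WT libraries at 50 ng were 1, 0, 0 and 1, and those of the 4 GFAP-IL6 libraries were 17, 9, 22 and 4, while at 0.5 ng every library had 0. At 1 ng the library labelled WT 3 had 13 Il6 counts, and GFAP-IL6 2 and 3 had 0, so Il6 did not separate the genotypes there. Gfap, the gene whose promoter drives the transgene, ran from 8.89 to 14.5 counts-per-million (CPM) in WT and from 30.6 to 74.0 in GFAP-IL6 at 50 ng, while at 1 and 0.5 ng the genotypes overlapped (8.18 to 22.5 against 11.8 to 76.5, and 2.17 to 30.8 against 9.61 to 62.4 CPM). The summed level of 4 neuronal markers was 3374 to 5366 CPM over the 32 libraries and was therefore high in every library. The 3 markers of choroid plexus, a tissue of the brain ventricles, summed to 3016 to 3375 CPM in the 4 libraries named WT 3 and to 25.5 to 339 CPM in every other library.

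Mitochondrial RNA was a large and unevenly divided part of the counts. Of all mitochondrial counts summed over the 32 libraries, mt-Rnr2 (chrM:1094-2675), the rRNA of the large mitochondrial ribosomal subunit, held 46.6%. The rRNA of the small subunit, mt-Rnr1 (chrM:70-1024), held 13.7%. Among protein-coding genes, mt-Nd1 (chrM:2751-3707), a membrane subunit of complex I, held 11.1%, and mt-Cytb (chrM:14145-15288), the only mitochondrially encoded subunit of complex III, held 10.8%. The complex I subunits mt-Nd4 and mt-Nd2 held 6.34% and 5.10%.

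Lower shares were found for mt-Nd5, also of complex I, with 2.11%, and for mt-Co1 (chrM:5328-6872), the catalytic subunit of complex IV, with 1.39%. The complex I subunit mt-Nd3 (chrM:9459-9806) held 0.241%. The complex I subunit mt-Nd6 (chrM:13552-14070), the only protein encoded on the other strand, held 0.0495%. It overlaps mt-Nd5 by 14 bases, and since the strand setting of the counting is not given in the sources used here, reads from the opposite strand cannot be told apart from its own.

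Per length of annotated gene the order was similar. At 50 ng, averaged over 8 libraries, mt-Rnr2 stood at 43420 CPM per kb and mt-Rnr1 at 21135 CPM per kb. The protein-coding genes followed with mt-Nd1 at 20267, mt-Cytb at 15747, mt-Nd2 at 8441 and mt-Nd4 at 7607 CPM per kb. Below these lay mt-Nd5 at 1991, mt-Co1 at 1563, mt-Nd3 at 1363 and mt-Nd6 at 164 CPM per kb.

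The neighbours mt-Rnr1 and mt-Nd1 cannot be ordered, since the 8 libraries ran from 12726 to 32637 CPM for mt-Rnr1 (955 bases) and from 14713 to 21669 CPM for mt-Nd1 (957 bases). The tRNA genes were measured too, led by mt-Tv, the valine tRNA that lies between the 2 rRNA genes, at 10748 CPM per kb. The assay counts fragments near a poly(A) site, and 17 of the 37 genes are shorter than 70 bases, so a per-length level is a description and not a copy number.

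**Figure D1:**
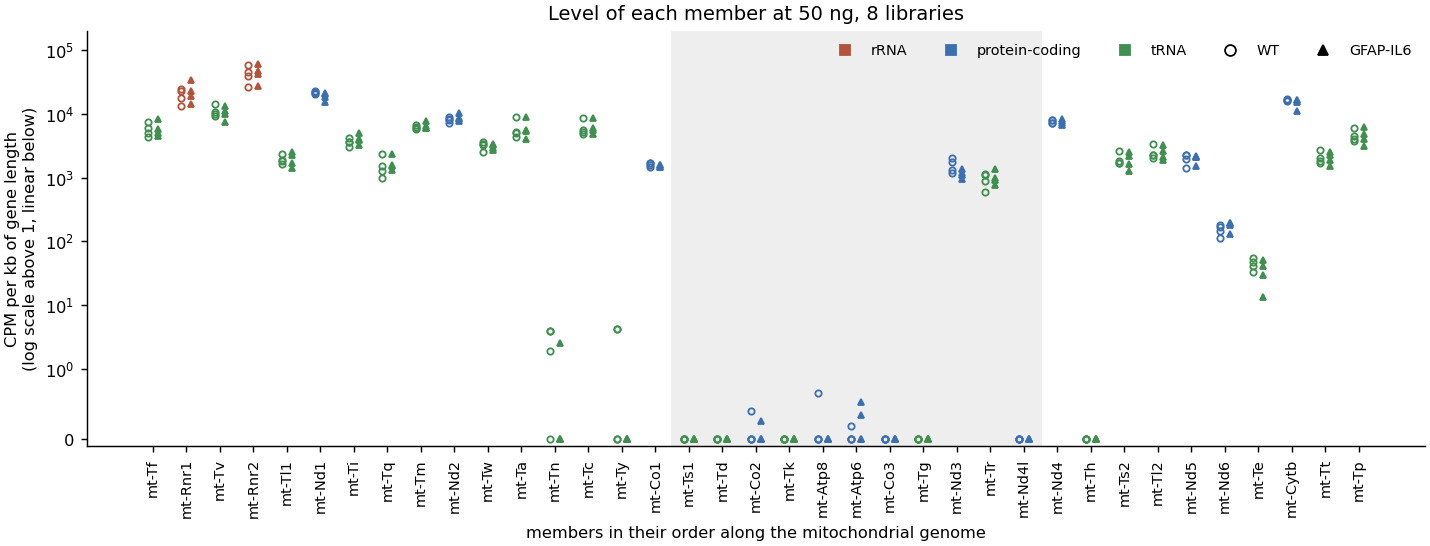
Level of each mitochondrial gene in the 8 libraries at 50 ng, in CPM per kb on an axis that is logarithmic above 1 and linear below, in the order of the genes along the mitochondrial chromosome, with the grey band marking the genes inside the stretch whose copies lie on chromosome 1. The rRNA genes, mt-Nd1 and mt-Cytb stand highest, and 9 of the 11 genes inside the band had under 30 counts in all libraries together.

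For 12 of the 37 genes the 32 libraries together held under 30 counts, and these 12 summed to 56 counts. The smallest total among the other 25 genes was 237, for mt-Te, the glutamate tRNA. The 12 included 5 protein-coding genes. The complex IV subunits mt-Co2 and mt-Co3 had 24 and 1 counts, the complex V subunits mt-Atp6 and mt-Atp8 had 13 and 1, and the complex I subunit mt-Nd4l had 1. Of the 24 counts of mt-Co2, 17 came from WT 4 at 0.5 ng. The other 7 were tRNA genes, with 10 counts for mt-Tn, 5 for mt-Ty, 1 for mt-Th and 0 for mt-Ts1, mt-Td, mt-Tk and mt-Tg. A count of 0 in a library allows up to 3 counts, and 10 of the 12 genes had no library above 3 counts.

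These genes lay close together. A stretch of 4649 bases at positions 6394 to 11042 of chrM held 11 genes, of which 9 were among the 12, the exceptions being mt-Nd3 and mt-Tr, the arginine tRNA, with 5640 counts. Of the 26 genes outside it, 3 were among the 12. On chromosome 1, 7 pseudogenes on the minus strand between 24611535 and 24616197 (mm10) carry copies of mt-Co2, mt-Atp6, mt-Co3, mt-Nd3 and mt-Nd4l and of parts of mt-Co1 and mt-Nd4.

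The copies were close to exact. Over the aligned bases, Gm28437 was identical to mt-Co3 at 783 of 783 positions, and the copies of mt-Co2 (Gm28661), mt-Atp6 (Gm10925) and mt-Nd4l (Gm10222) were identical at every aligned position. The copy of mt-Nd3, Gm28438, differed at 1 of 345 positions, T3C, counted from the first base of mt-Nd3 with the mitochondrial base given first. Windows of 30 bases near the gene ends are given as examples, and the first pair is found in the named copy. The last is from mt-Cytb, where 0 windows of 70 or 50 bases were shared with annotated nuclear transcripts. Its label, in no copy, refers to those longer windows, since the 30 bases themselves were not searched for.
mt-Co3 bases 635 to 664 (also in Gm28437): caacattccttattgtttgcctactacgac
mt-Co2 bases 535 to 564 (also in Gm28661): ctaaatcaagcaacagtaacatcaaaccga
mt-Cytb bases 995 to 1024 (in no copy): tacttatcttaacctgaattgggggccaac

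The authors counted only uniquely aligned reads, so shared sequence was measured in windows of 70 bases against 141730 annotated nuclear transcripts. In 5 genes more than 90% of the windows were shared, namely mt-Co2, mt-Co3, mt-Atp6, mt-Nd4l and mt-Nd3, and 4 of these 5 were among the genes with under 30 counts. The remaining gene, mt-Nd3, had 35236 counts although nearly all its windows were shared. In mt-Nd4 61.7% of windows were shared, all in its first 876 bases and none in its last 300.

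The reverse held for mt-Co1, with 42.1% shared overall but 100% in its last 300 bases. Among the 15 rRNA and protein-coding genes, the 6 with more than 90% of windows shared in the last 300 bases had at most 1563 CPM per kb at 50 ng. No window was shared with annotated nuclear transcripts for mt-Rnr1, mt-Rnr2, mt-Nd1, mt-Cytb, mt-Nd6 or mt-Atp8. For mt-Atp8 this does not show that no copy exists. It starts between mt-Co2 and mt-Atp6, which lie 230 bases apart, and their copies lie 233 bases apart on chromosome 1. The bases between these copies were not searched. The flanks of the copies and the rest of the nuclear genome were not searched, and whether shared sequence set the low counts was not tested. For the 5 shared genes, and for mt-Co1 with its shared end, the counts are therefore uncertain as measures of RNA. So are those of mt-Atp8 and of the tRNA genes inside the stretch copied on chromosome 1, since the bases between the annotated copies were not searched.

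The share of all counts that came from the 37 genes ran from 10.95% to 20.1% over the 32 libraries, and no genotype difference in it passed the test. At 50 ng the WT libraries stood at 14.9%, 18.3%, 12.4% and 16.6%, and the GFAP-IL6 libraries at 15.3%, 15.9%, 12.7% and 18.9%. The groups overlapped over nearly their whole range. Counting error was small beside the spread between libraries, since the widest 95% Wilson interval of any library, GFAP-IL6 2 at 1 ng, was 17.3% to 17.6%, and such intervals cover counting error only. The means were 15.5% ± 2.51 in WT and 15.7% ± 2.53 in GFAP-IL6 (SD, n = 4 each).

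The difference of 0.156 percentage points gave an exact permutation p of 0.886 (two-sided, adjusted p = 1 over 4 inputs), where 4 against 4 libraries cannot go below 0.0286. After adjustment over 4 inputs, 1 input alone at that lowest value would not pass. At 10 ng the means were 15.8% in WT and 15.9% in GFAP-IL6, and at 1 ng both were 15.8%. At 0.5 ng they were 15.7% and 15.2%. None of the 4 differences passed the exact permutation test, with unadjusted p from 0.8 to 1. Single libraries set the sign of these differences, which ran from -2.07 to 1.48 percentage points over the 4 inputs when 1 library at a time was left out.

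No difference of the total with input passed either. Over the 8 libraries of an input the mitochondrial share averaged 15.6% ± 2.33 (50 ng), 15.8% ± 2.65 (10 ng), 15.8% ± 2.92 (1 ng) and 15.5% ± 2.70 (0.5 ng), as mean ± SD with n = 8. The differences from 50 ng were 0.240, 0.164 and -0.143 percentage points, with exact permutation p of 0.848, 0.903 and 0.908 (adjusted p = 0.908 each).

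**Figure D2:**
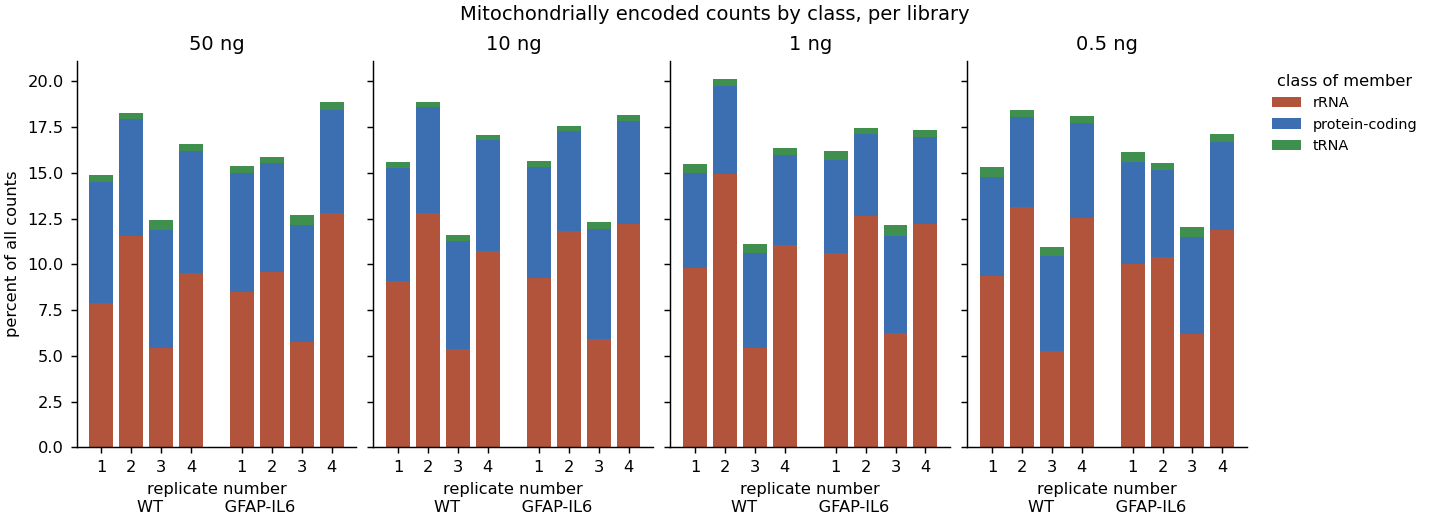
Percent of each library's counts in rRNA, protein-coding and tRNA genes of the mitochondrial chromosome, as stacked bars for the 32 libraries grouped by input and genotype. The totals run from 10.95% to 20.1%, and the library numbered 3 is the lowest in each of the 8 groups.

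The spread within groups followed the library number. The library numbered 3 had the lowest mitochondrial share in 8 of 8 groups, and also the lowest mt-Rnr1, mt-Rnr2 and mt-Nd5 CPM in 8 of 8. It had the highest mt-Nd1 CPM in 8 of 8 groups, and the highest CPM of the tRNAs mt-Ta, mt-Tc and mt-Tq. Its tRNA and protein-coding shares of the mitochondrial counts were also the highest in each group. A lower rRNA share raises both of these. As a share of all counts, its tRNA genes were the highest in 7 of 8 groups and its protein-coding genes in 1 of 8. The protein-coding genes averaged 5.72% of all counts in number 3 and 5.53% in numbers 1, 2 and 4.

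Over the 8 groups the number 3 libraries averaged a mitochondrial share of 11.9%, against 16.9% in numbers 1, 2 and 4. Of the mitochondrial counts, 47.9% were rRNA in number 3 and 64.7% in the others. For tRNA the shares were 4.18% and 2.26%. The WT and GFAP-IL6 libraries with number 3 cannot come from 1 mouse, since their genotypes differ.

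Markers moved with the number only in part. The choroid plexus markers were high in WT 3 and low in GFAP-IL6 3, at 66.3 to 141 CPM. The 4 oligodendrocyte markers summed to 6030 to 7670 CPM in number 3, against 3364 to 6848 CPM in numbers 1, 2 and 4. In GFAP-IL6, number 3 (6223 to 7670 CPM) lay above the highest other value, 6164 CPM. In WT, number 2 (6702 to 6848 CPM) lay within the range of number 3 (6030 to 7039 CPM), although its mitochondrial share was 18.3% to 20.1%. The part of these markers in the lower mitochondrial share of number 3 was not tested. In bulk tissue fewer cells of a type and less RNA per cell cannot be told apart.

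Because number 3 (10.95% to 12.7%) lay apart from numbers 1, 2 and 4 (14.9% to 20.1%), no correlation over all 8 libraries is given. Within the 6 libraries numbered 1, 2 and 4, the mitochondrial share at 10 ng and at 1 ng had Pearson r = 0.880 (exact permutation p = 0.00417, adjusted p = 0.025 over 6 pairs of inputs) and Spearman rho = 0.943 (exact permutation p = 0.0167, adjusted p = 0.1). Without the 2 libraries farthest from the median, r over the 4 left was 0.919. For the other 5 pairs of inputs r ran from 0.609 to 0.878, and none passed (exact permutation test, adjusted p from 0.112 to 0.185). Without their 2 farthest libraries the lowest r was -0.40, for 1 and 0.5 ng. With 4 libraries left, this r cannot show what that relation rested on.

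**Figure D3:**
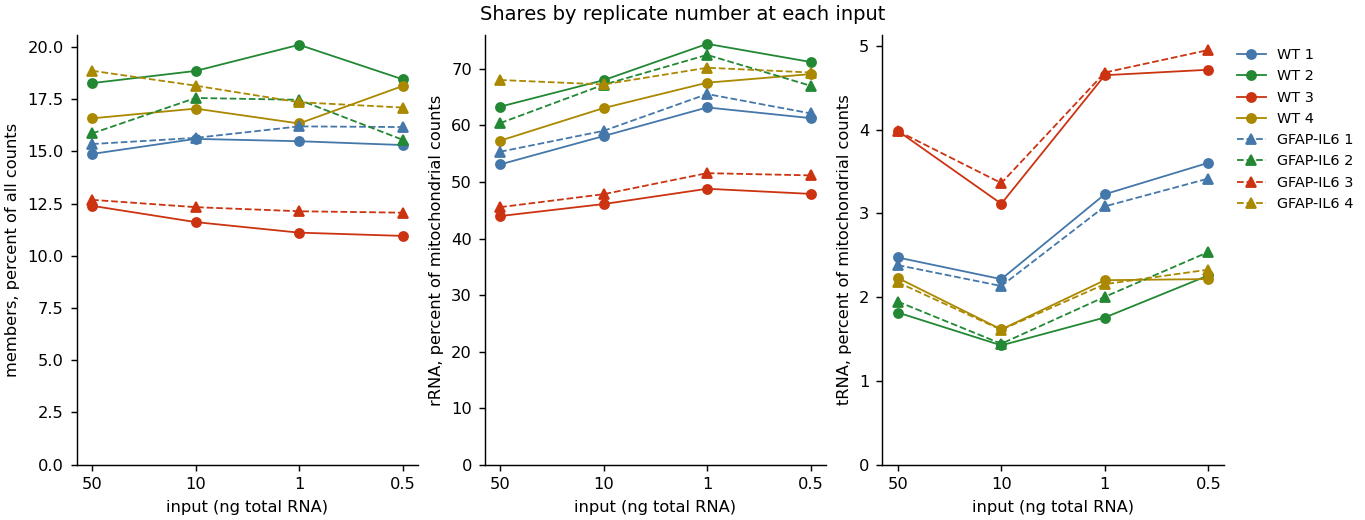
Mitochondrial share of all counts (left) and rRNA (middle) and tRNA (right) shares of the mitochondrial counts, in percent, against input in ng, with 1 point per library and lines joining libraries of 1 genotype and number. Number 3 lies lowest for the mitochondrial and rRNA shares and highest for the tRNA share at every input in both genotypes.

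Variation within groups differed by RNA class. The SD of log2(CPM + 1) within groups had a median of 0.305 over 24 mitochondrial genes at 50 ng, against 0.339 over the 12164 genes tested. At 0.5 ng the medians were 0.323 and 1.32. These sets were not matched for level, and counting noise widens the SD of genes with few counts. The mitochondrial set includes mt-Rnr2, mt-Rnr1 and mt-Nd1, which ranked 1, 2 and 3 of all genes at 50 ng. Protein-coding mitochondrial genes varied least as a class, with class medians from 0.126 to 0.181 over the 4 inputs, but the protein-coding mt-Nd6 had the highest SD of the 24 genes at 0.5 ng, at 0.925. The rRNA gene mt-Rnr2 had SDs from 0.475 to 0.570.

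No mitochondrial gene passed the genotype test at any input. At 50 ng edgeR's quasi-likelihood test called 0 of 25 at a Benjamini-Hochberg adjusted p under 0.05, where 0.28% of all 11773 genes tested were called. At 10 ng it called 0 of 25, with 0.332% of all genes called, 0.299% higher and 0.0332% lower. At 1 ng and 0.5 ng it called 0 of 24, with 0.0323% and 0.0117% of all genes called. DESeq2 also called 0 at each input.

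At an unadjusted p under 0.05 edgeR listed 1, 0, 0 and 0 mitochondrial genes at the 4 inputs from 50 ng down. These counts are not set here against those of all genes. The median log2 fold change of the mitochondrial genes was -0.015, 0.031, 0.024 and 0.013 at these inputs, against -0.0034, 0.0034, -0.0065 and -0.0097 over all genes tested. Both sets of medians lay near 0. At 50 ng, 11 mitochondrial genes lay above 0 and 14 below.

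The gene with the unadjusted p under 0.05 was mt-Nd3. At 50 ng its level in WT was 461, 617, 412 and 716 CPM, and in GFAP-IL6 it was 472, 408, 377 and 332 CPM. The groups overlapped, since GFAP-IL6 1 lay above WT 1 and WT 3. The log2 fold change was -0.52 (SE 0.19, edgeR adjusted p = 0.73). At 10, 1 and 0.5 ng it was -0.28, -0.21 and -0.23, with edgeR adjusted p from 0.744 to 1.

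Intervals show what size of genotype effect these libraries could not separate from 0. For mt-Rnr2 the 95% interval of the log2 fold change at 50 ng was -0.44 to 0.47, and for mt-Rnr1 it was -0.29 to 0.61. The protein-coding genes had narrower ones. For mt-Nd1 it was -0.52 to 0.081, and for mt-Cytb -0.51 to 0.12. At 1 ng the interval of mt-Cytb was -0.28 to 0.019.

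**Figure D4:**
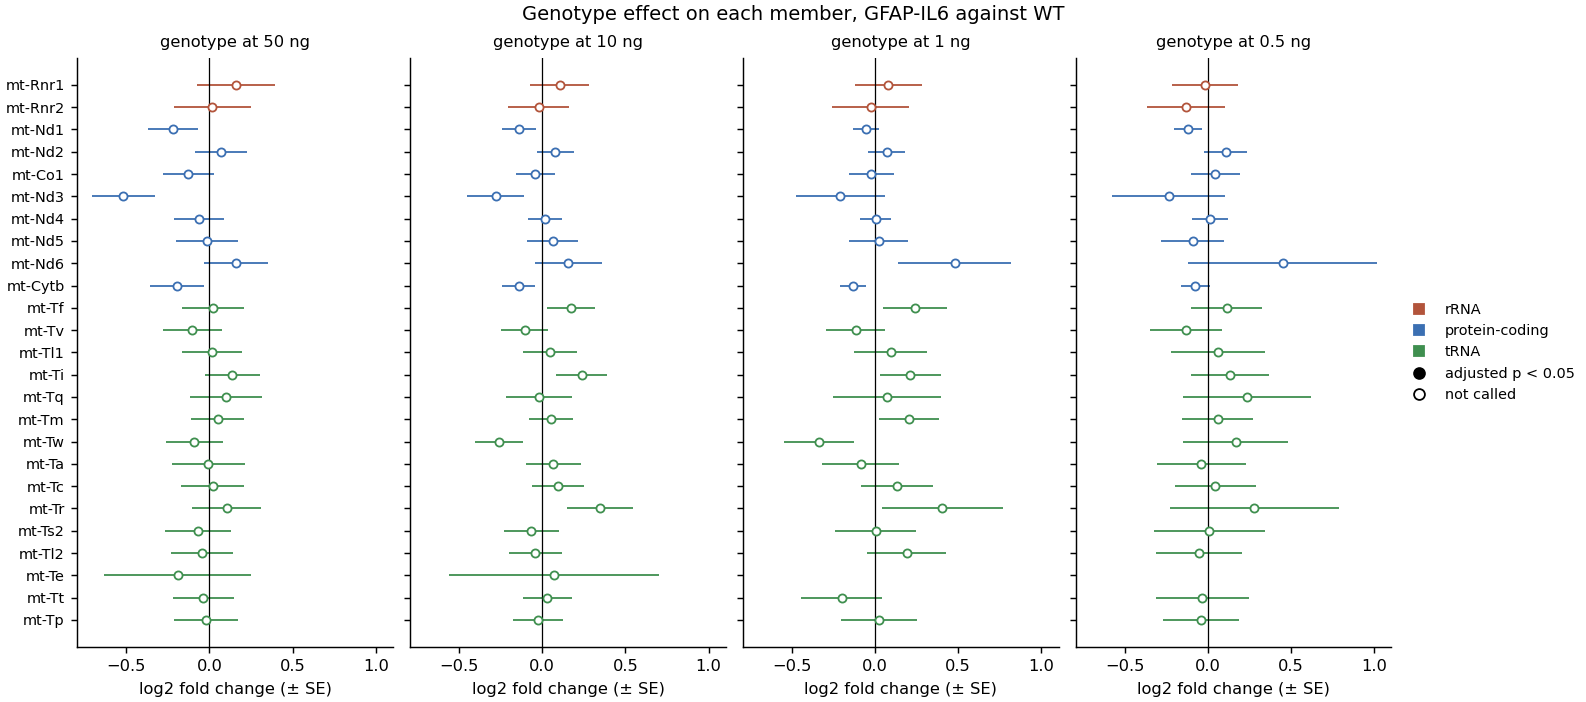
Log2 fold change of each mitochondrial gene, GFAP-IL6 over WT, at each RNA input, with bars of 1 SE and filled points where the adjusted p was under 0.05. No point is filled, and the lowest value of a protein-coding gene at 50 ng is mt-Nd3 at -0.52.

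At lower input the protein-coding genes made up less of the counts, while the rRNA and tRNA classes and the total did not pass an unpaired test. The rRNA share of the mitochondrial counts averaged 55.9%, 59.6%, 64.2% and 62.4% from the highest input to the lowest. The protein-coding share averaged 41.5%, 38.3%, 32.8% and 34.3%, and the tRNA share 2.62%, 2.11%, 2.97% and 3.25%. None of these 9 differences from 50 ng passed the exact permutation test after adjustment, with adjusted p from 0.246 to 0.508. The smallest unadjusted exact permutation p was 0.0479, for the protein-coding share at 1 ng.

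As a share of all counts, the protein-coding genes did pass. These tests were chosen after the data had been seen. At 50 ng the protein-coding genes held 5.62% to 6.71% of all counts, with a median over WT libraries of 6.53% and over GFAP-IL6 libraries of 6.18%. At 1 ng they held 4.46% to 5.31% and at 0.5 ng 4.73% to 5.57%, so neither lower input overlapped with 50 ng.

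The means, with SD and n = 8, fell from 6.33% ± 0.360 for 50 ng to 5.89% ± 0.232 for 10 ng, 4.97% ± 0.280 for 1 ng and 5.14% ± 0.289 for 0.5 ng. The exact permutation p was 0.0148 at 10 ng and 0.000155 at both 1 and 0.5 ng (adjusted p = 0.0443, 0.000699 and 0.000699 over 9 tests). Of these, 0.000155 is the smallest that 12870 arrangements can give. The rRNA genes held 8.89%, 9.64%, 10.4% and 9.85% of all counts, and their differences from 50 ng did not pass (exact permutation test, adjusted p from 0.413 to 0.579). Those of the tRNA genes did not pass either (exact permutation test, adjusted p from 0.0741 to 0.403).

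Gene by gene, mt-Nd1, mt-Nd2 and mt-Nd3 of complex I and mt-Co1 of complex IV were lower at both 1 and 0.5 ng. At 1 ng against 50 ng edgeR called 4 of 24 mitochondrial genes, all lower, where 0.822% of the 12164 genes tested were called in either direction. At 0.5 ng it called 7, of which 4 were lower and 3 higher, with 6.72% of all genes called, 4.83% lower and 1.9% higher. At 10 ng it called 0, with 0.0% of all genes called. At 10 ng 5 of 24 mitochondrial genes had an unadjusted edgeR p under 0.05, a count that is not set here against that of all genes. DESeq2 called 0 at 10 ng, and limma's voom called 1, mt-Tv.

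The largest difference belonged to mt-Nd3. Its lowest, median and highest levels over 8 libraries were 332, 436 and 716 CPM at 50 ng. At 10 ng they were 260, 406 and 523 CPM, at 1 ng 120, 147 and 227 CPM, and at 0.5 ng 129, 207 and 298 CPM. The libraries of 1 and 0.5 ng lay below all those of 50 ng. The ratio of mean CPM to 50 ng was 0.345 at 1 ng and 0.423 at 0.5 ng.

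The edgeR log2 fold change of mt-Nd3 was -1.46 at 1 ng (SE 0.19, adjusted p = 4.17e-06) and -1.14 at 0.5 ng (SE 0.19, adjusted p = 0.000194). As given above, nearly all windows of mt-Nd3 are shared with the copy on chromosome 1, which was not in the count table.

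The catalytic complex IV subunit mt-Co1 fell less. Its lowest, median and highest levels were 2236, 2429 and 2648 CPM at 50 ng, 1577, 1774 and 1943 CPM at 1 ng, and 1533, 1950 and 2014 CPM at 0.5 ng. The 1 ng and 0.5 ng libraries lay below all those of 50 ng. The log2 fold change was -0.41 at 1 ng (SE 0.089, edgeR adjusted p = 0.00956) and -0.31 at 0.5 ng (SE 0.089, edgeR adjusted p = 0.0233). As given above, 100% of the windows in the last 300 bases of mt-Co1 are shared with nuclear copies.

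For mt-Nd1 the lowest, median and highest levels were 14713, 20077 and 21669 CPM at 50 ng, 12870, 14451 and 16326 CPM at 1 ng, and 12860, 14429 and 15977 CPM at 0.5 ng. Only GFAP-IL6 4 at 50 ng overlapped with the lower inputs. The log2 fold change was -0.36 at 1 ng (SE 0.061, edgeR adjusted p = 0.000282) and -0.38 at 0.5 ng (SE 0.061, edgeR adjusted p = 0.000101).

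For mt-Nd2, another complex I subunit, the lowest, median and highest levels were 7572, 8572 and 10601 CPM at 50 ng, 5767, 6326 and 7577 CPM at 1 ng, and 5640, 6768 and 8205 CPM at 0.5 ng. These ranges overlapped. The log2 fold change was -0.38 at 1 ng (edgeR adjusted p = 0.025) and -0.30 at 0.5 ng (edgeR adjusted p = 0.0365).

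The other 4 protein-coding genes tested did not pass at 1 or 0.5 ng. At 1 ng mt-Nd4 had a log2 fold change of -0.24, mt-Cytb -0.20, mt-Nd5 -0.33 and mt-Nd6 -0.035 (edgeR adjusted p = 0.0934, 0.191, 0.5 and 0.997). At 0.5 ng the values were -0.18, -0.082, -0.20 and -0.13. The value was below 0 for 8 of 8 protein-coding genes at each of the 3 lower inputs, with medians of -0.10, -0.35 and -0.25, against -0.0045, -0.048 and -0.088 over all genes tested.

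The rRNA genes did not pass. Over the 8 libraries the lowest, median and highest mt-Rnr2 levels were 41776, 69281 and 95674 CPM at 50 ng and 41876, 85789 and 123809 CPM at 1 ng. The ranges overlapped from the lowest value up. Its log2 fold change was 0.31 at 1 ng (SE 0.22, edgeR adjusted p = 0.844) and 0.23 at 0.5 ng (SE 0.21, edgeR adjusted p = 0.608). For mt-Rnr1 it was 0.11 at 1 ng and 0.15 at 0.5 ng (SE 0.19 each, edgeR adjusted p = 0.983 and 0.734).

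**Figure D5:**
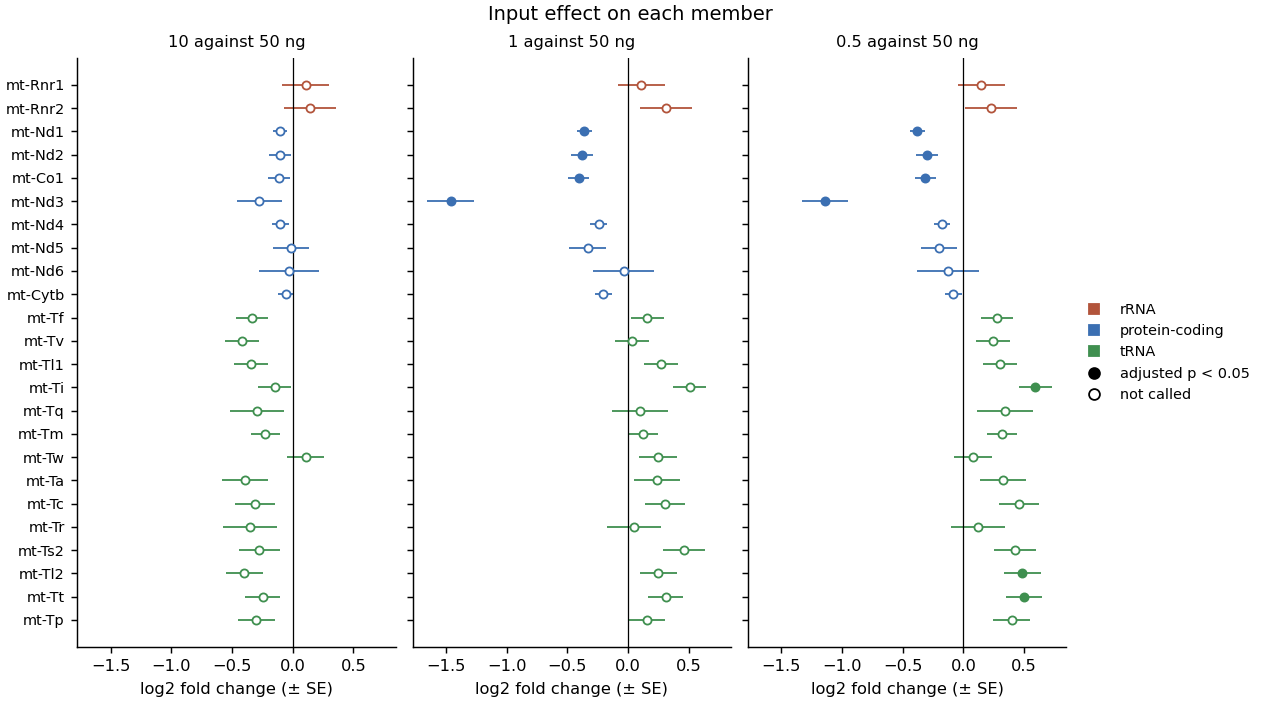
Log2 fold change of each mitochondrial gene at 10, 1 and 0.5 ng against 50 ng, averaged over genotypes, with bars of 1 SE and filled points where the adjusted p was under 0.05. Protein-coding genes lie below 0 at all inputs, led by mt-Nd3 at -1.46 and -1.14, while tRNA genes lie mostly below 0 at 10 ng and above 0 at 1 and 0.5 ng.

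The tRNA genes lay mostly below their 50 ng level at 10 ng, where none passed, and above it at 1 and 0.5 ng, where 3 passed, all at the lowest input. At 10 ng 13 of 14 lay below 0 with a median log2 fold change of -0.31. At 1 ng and 0.5 ng 14 of 14 lay above 0, with medians of 0.24 and 0.34. At 0.5 ng 1.9% of all genes were called higher. The 3 tRNA genes that passed were mt-Ti (isoleucine) with a log2 fold change of 0.59, mt-Tt (threonine) with 0.50 and mt-Tl2 (leucine) with 0.48 (SE 0.14, 0.15 and 0.15, edgeR adjusted p = 0.00455, 0.0291 and 0.0425).

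The highest tRNA by level was mt-Tv. Its lowest, median and highest levels were 521, 719 and 984 CPM at 50 ng, 379, 535 and 689 CPM at 10 ng, 547, 728 and 921 CPM at 1 ng, and 519, 835 and 1089 CPM at 0.5 ng. The ranges of 50 and 10 ng overlapped. Its log2 fold change at 10 ng was -0.42 (SE 0.14, unadjusted p = 0.00447, edgeR adjusted p = 1).

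The next by level, the methionine tRNA mt-Tm, had lowest, median and highest levels of 402, 424 and 544 CPM at 50 ng, 332, 368 and 431 CPM at 10 ng, 349, 471 and 587 CPM at 1 ng, and 428, 491 and 681 CPM at 0.5 ng. The next were the tRNAs for cysteine, alanine and phenylalanine, mt-Tc, mt-Ta and mt-Tf, none of which passed at any input. For mt-Tc the medians from 50 ng down were 369, 316, 459 and 530 CPM, within a range of 240 to 727 CPM over all 32 libraries. For mt-Ta they were 368, 283, 443 and 502 CPM, within 228 to 741 CPM. For mt-Tf they were 369, 292, 414 and 440 CPM, within 242 to 613 CPM.

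Among these, no range at a lower input was free of overlap with that at 50 ng. For mt-Ti, which was described after its values were seen, the levels were 211, 257 and 352 CPM at 50 ng and 296, 382 and 504 CPM at 0.5 ng, so these ranges overlapped too. The tRNA genes are 59 to 75 bases long, close to the length of a read, so a read counted for a tRNA can also cover part of a neighbour.

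Single libraries and other tests moved the input calls. A block for the library number raised the edgeR count at each lower input, as given below. With 1 library number of a genotype left out at all inputs, edgeR called 2 to 4 mitochondrial genes at 1 ng, with 2 both without GFAP-IL6 2 and without WT 4, which left mt-Nd1 and mt-Nd3. At 0.5 ng it called 3 to 6, with 3 without GFAP-IL6 2 and 4 without WT 1, WT 2 or WT 4. The edgeR fit of all libraries shares 1 estimate of the spread over inputs. Fits to single inputs gave a common biological coefficient of variation of 0.214 at 50 ng and 0.767 at 0.5 ng. Calls of the shared fit at 0.5 ng, and its share of all genes called, are therefore less certain. At 0.5 ng voom with weights per input called 0, and its smallest adjusted p was 0.0671. The genes mt-Nd1, mt-Nd3 and mt-Ti had an adjusted p under 0.05 at 0.5 ng in all 8 edgeR fits with a library left out.

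No difference in genotype effect between inputs passed for a mitochondrial gene. The edgeR test of the difference in genotype effect from that at 50 ng called 0 of 24 at 10, 1 and 0.5 ng, with 0.0%, 0.0% and 0.197% of all genes called, the last divided into 0.0987% higher and 0.0987% lower. It listed 0 at an unadjusted p under 0.05, and DESeq2 and voom also called 0.

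Nuclear genes that serve the same system were described from a pair of lists. The first holds 41 gene symbols for mitochondrial DNA upkeep, transcription and RNA handling. They matched 40 genes of the count table, of which 37 were tested at 50 ng. None passed for genotype when edgeR was fitted to each input alone, with 0, 2, 1 and 0 at an unadjusted p under 0.05 from 50 ng down, and DESeq2 called 0 at each input. In the 1 edgeR fit of all 32 libraries 2 of 39 were called at 0.5 ng, where that fit called 655 of 12164 genes. The genes of this list with the lowest unadjusted p at 50 ng were Tfb2m, Polg and Ppargc1b (edgeR adjusted p from 0.835 to 0.836). Tfb2m, a mitochondrial transcription factor, had a log2 fold change of -0.54. Polg, the catalytic subunit of the DNA polymerase, had 0.41, and Ppargc1b, a transcriptional coactivator, had 0.40. The median of the list was -0.089 at 50 ng and turned to 0.064 without GFAP-IL6 4. At 0.5 ng against 50 ng edgeR called 3 of 39 lower and 0 higher, where 4.83% of all genes were called lower, and 17 lay above 0 and 22 below, with a median of -0.20 against -0.088 over all genes.

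The second list holds 88 nuclear subunits of complexes I, III, IV and V. None of 84 tested at 50 ng passed for genotype by edgeR or DESeq2, and 0 had an unadjusted p under 0.05, yet 82 of 84 lay below 0 with a median of -0.21 against -0.0034 over all genes. Without GFAP-IL6 4 this was 67 of 84 with a median of -0.056. That library also held 6.36% of its counts in lincRNA genes, against 1.72% to 4.46% in the others, and its part in the median was not tested.

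At 10 ng 80 of 85 genes of the second list lay below 0 with a median of -0.17, which was -0.11 without GFAP-IL6 4. At 1 and 0.5 ng 63 of 80 and 61 of 80 lay below 0, with medians of -0.12 and -0.14. The lowest unadjusted p at 50 ng belonged to Cox7b and Ndufa11, subunits of complexes IV and I, and to Cyc1, cytochrome c1 of complex III, with log2 fold changes of -0.32, -0.29 and -0.35 (edgeR adjusted p = 0.835 each). At 0.5 ng against 50 ng edgeR called 20 of 86 higher and 3 lower, where 1.9% of all genes were called higher and 4.83% lower, and 57 lay above 0 and 29 below, with a median of 0.14. The list made up 4.47%, 4.75%, 4.87% and 4.99% of all counts at 50, 10, 1 and 0.5 ng.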

How the data were processed

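3'Pool-seq counts of 32 frontal cortex libraries were used. The authors trimmed poly(A) stretches of at least 12 bases after position 25, aligned the reads by STAR 2.4, assigned those with 1 alignment to annotated genes in featureCounts and deposited the raw counts without normalization. The paper's methods name mouse build mm10, while the labels name a human build, and the lengths of all 37 chrM genes in the table matched the mm10 annotation. CPM were computed over all counts of a library. Genotype was tested at each input with edgeR 4.0.16 (R 4.3.3, TMM scaling, filterByExpr, quasi-likelihood test), and input and interaction in 1 fit of all 32 libraries, with Benjamini-Hochberg adjustment over all genes tested and a call at an adjusted p under 0.05. DESeq2 1.42.0 and limma 3.58.1 were alternatives. Shares were compared with exact permutation tests of means in scipy 1.17.1, two-sided. The scripts were tested on simulated data.

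All chrM genes could be named. Per-library values were given for rRNA and protein-coding genes and for the 5 tRNA genes with the highest mean CPM, and mt-Ti was added for its call after its values were seen. The members, lists, markers and tests were chosen with earlier results of these data known. The shared sequence was searched in annotated transcripts in place of the whole genome, which was not used here. No pair of libraries agreed within sampling noise, the lowest of 48 chi-square values per degree of freedom within groups being 2.15. Depth, 261378 to 9840302 counts, limits low genes most at 1 and 0.5 ng. Other alternatives were other size factors, scaling from nuclear genes, no filter on low counts, thinning to the lowest total, a replicate block, CPM per kb, uniquely placed genes only and leaving out each library.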

Additional observations from a re-analysis of the deposited data

Results flagged for a closer look

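In 2 of 152 groups of 4 libraries examined over 19 measures, 1 library stood far from the other three, its gap to the nearest divided by the group's range being above Dixon's 95% critical value. Chance gives about 1 in 20. For mt-Nd5 in GFAP-IL6 at 50 ng, replicate 3 had 2791 CPM and the others 3895 to 4054 CPM, a gap of 0.874 of the range. For mt-Co1 in GFAP-IL6 at 0.5 ng, replicate 2 had 1783 CPM and the others 1936 to 1965 CPM, a gap of 0.842 of the range.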

How the results depend on the processing

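No genotype call on a mitochondrial gene appeared under another size factor, DESeq2, no filter on low counts, thinning, nuclear scaling, the block or a left-out library. No genotype difference of a share passed its threshold either, though many changed sign. With the block, the share test flips signs over 4 pairs. The p of this sign-flip test cannot go below 0.125, so it could not pass. Without 1 library at a time, the difference in mitochondrial share between genotypes ran from -0.901 to 1.16, -1.25 to 1.34, -1.52 to 1.48 and -2.07 to 0.564 percentage points from the highest input to the lowest. In the same order, the difference in the rRNA share of mitochondrial counts ran from -0.657 to 6.84, -2.73 to 5.68, -3.44 to 5.92 and -4.78 to 3.80. That of the protein-coding share ran from -6.38 to 0.512, -5.31 to 2.34, -5.37 to 2.86 and -3.36 to 4.16, and that of the tRNA share from -0.457 to 0.449, -0.363 to 0.386, -0.545 to 0.585 and -0.437 to 0.615. Against 50 ng the mitochondrial share differed by -0.0745 to 0.403 at 1 ng and by -0.385 to 0.0876 at 0.5 ng. Without the number 3 libraries, a choice made after seeing the data, the genotype difference was -0.0492 at 10 ng and -0.302 at 1 ng, and the input difference at 0.5 ng was 0.151. The Pearson r of the share between inputs was then 0.878 for 50 and 10 ng, 0.704 for 50 and 1 ng, 0.723 for 50 and 0.5 ng, 0.656 for 10 and 0.5 ng and 0.609 for 1 and 0.5 ng, each no longer past the threshold that it passed over all 8 libraries. These rest on 6 libraries in place of 8.

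In another setting only protein-coding mitochondrial genes were counted, and mitochondrial rRNA and tRNA counts were also taken out of the library total. This share therefore differs from the protein-coding share of all counts given above. The genotype difference was -0.423, -0.157 and -0.125 at 50, 10 and 1 ng. The input difference was -0.431, -1.40 and -1.24 at 10, 1 and 0.5 ng. The 3 input differences then passed the exact permutation test (adjusted p = 0.0103, 0.000233 and 0.000233), and the genotype differences did not. With genes at least 90% uniquely placed the input difference at 0.5 ng was 0.0267. As a log2 ratio of rRNA to protein-coding counts, the genotype difference at 0.5 ng was -0.00192. In CPM per kb the rRNA genes held 35.6% of the summed level at 50 ng, against 55.9% of counts. Without a filter on low counts 8 mitochondrial genes were called at 1 ng (103 of all 19973 genes), and after thinning 4 were called at 0.5 ng (228 of 6569). Voom called 1 at 10 ng (32 of 12164) and 0 at 0.5 ng (373 of 12164). Leaving out 1 library number of a genotype gave 2 to 4 at 1 ng and 3 to 6 at 0.5 ng. The cause was not tested for any of these.

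With the replicate number as a block, edgeR called 1 mitochondrial gene at 10 ng, 9 at 1 ng and 15 at 0.5 ng, with 6, 166 and 1057 of all 12164 genes called, and the paired test of class shares passed for rRNA (3.70, 8.34 and 6.52 percentage points at 10, 1 and 0.5 ng), protein-coding (-3.19, -8.69 and -7.14) and tRNA (-0.509 at 10 ng and 0.629 at 0.5 ng). The labels do not say that the numbers pair libraries. Over 13392 genes, deviations of same-numbered libraries correlated at 0.0214 to 0.510 between inputs, over 0.1 in 9 of 24 pairs, and 22 of 24 correlated best with their own number. Between genotypes they correlated at -0.0026 to 0.189. Over 25 mitochondrial genes alone the median was 0.700 between inputs, over 0.1 in 21 of 24 pairs, and 0.476 between genotypes, over 0.1 in 15 of 16. Not every pair was over 0.1, and genotypes cannot share a mouse, though the latter bears on genotype contrasts only. Same-numbered libraries did resemble each other between inputs. The choroid plexus markers were also high in WT 3 at all 4 inputs. The labels do not give the pairing, so the unpaired tests are the ones reported for input. They leave the spread between numbers in their error, so an unpaired difference that did not pass is weak evidence of no change. The block shows that the class shares and calls depend on this choice.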
